A study of Homo sapiens with 4 samples.

Results

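10 genes of amino acid supply were examined in IMR-32 cells, a neuroblastoma cell line with amplified MYCN, out of 60612 genes in the deposited count table. They were chosen by name after the comparison of shNeuroD1 with shControl was already known, so their own changes in that comparison are given as a description with no test. The set holds the asparagine synthetase gene ASNS, the proline synthesis gene PYCR1, the mitochondrial phosphoenolpyruvate carboxykinase gene PCK2, and 7 plasma membrane carriers: SLC7A5, SLC7A1, SLC1A4, SLC1A5, SLC38A1, SLC38A2 and SLC6A9. All cells carried a hairpin RNA that doxycycline induces, and all 4 libraries came from cells given doxycycline at 1 µg/mL for 48 h. The shControl group (2 libraries) carried the control hairpin, although its genotype is labelled WT and the series text speaks of parental cells, and the shNeuroD1 group (2 libraries) carried a hairpin against NEUROD1. No label tells if a group's libraries came from separate cultures, or whether the numbers 1 and 2 of shNeuroD1 stand for replicates or for different hairpins, so any p-value measures only the spread between these samples.

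Cells take up amino acids through carriers that exchange one amino acid for another or couple uptake to sodium, and they make the others from intermediates of glycolysis and the citric acid cycle. When amino acids run short, uncharged transfer RNA activates the kinase GCN2, translation of the transcription factor ATF4 rises, and ATF4 with a partner binds C/EBP-ATF response elements near genes of uptake and synthesis. ASNS is a textbook target of this route, and MYC proteins are also known to raise several of the carriers in tumour cells.

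The promoters of the members are shown first because this pathway is known to act through response elements near genes of uptake and synthesis. Whether it acts on the members in these cells was not tested. 9 of the 10 members had a RefSeq promoter window (14 windows, each from 250 bases before to 50 bases after a start site, GRCh38.p14). The element was searched as TGATGNAAN on both strands, with N for any base. It was found in 5 of the 14 windows, which belong to 5 of the 9 members, against 3.61% of 35116 promoter windows and 4.45% of 27305 genes. The stricter form TGATGNAAT, which lies within the first motif, was in 0 of the 14 windows, against 0.99% of all windows. A match is a description of letters and not evidence of binding. The windows of ASNS, SLC1A4 and SLC7A1 are printed because each holds a match and its RefSeq start is the same base as a transcript start in the deposited FPKM tables. Capitals mark the match. The strand and place are chr7:97872359-97872658, minus strand, for ASNS, chr2:64989149-64989448, plus strand, for SLC1A4, and chr13:29595639-29595938, minus strand, for SLC7A1.
ASNS: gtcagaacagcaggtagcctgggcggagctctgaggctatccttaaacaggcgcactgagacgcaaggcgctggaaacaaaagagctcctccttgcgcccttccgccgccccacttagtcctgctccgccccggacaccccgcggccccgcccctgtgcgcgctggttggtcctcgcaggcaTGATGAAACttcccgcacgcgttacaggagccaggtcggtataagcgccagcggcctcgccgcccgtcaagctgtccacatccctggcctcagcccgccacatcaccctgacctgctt
SLC1A4: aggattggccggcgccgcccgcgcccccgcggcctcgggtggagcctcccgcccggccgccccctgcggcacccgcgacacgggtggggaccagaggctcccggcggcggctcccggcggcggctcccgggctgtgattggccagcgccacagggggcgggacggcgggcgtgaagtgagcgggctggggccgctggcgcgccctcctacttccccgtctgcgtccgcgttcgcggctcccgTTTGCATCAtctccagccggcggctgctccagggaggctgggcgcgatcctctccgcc
SLC7A1: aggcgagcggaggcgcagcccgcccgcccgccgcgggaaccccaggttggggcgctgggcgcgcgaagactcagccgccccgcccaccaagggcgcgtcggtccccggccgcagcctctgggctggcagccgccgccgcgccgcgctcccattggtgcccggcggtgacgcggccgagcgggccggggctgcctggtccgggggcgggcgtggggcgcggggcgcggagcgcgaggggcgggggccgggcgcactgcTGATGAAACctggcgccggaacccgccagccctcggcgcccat

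In ASNS the matched letters were TGATGAAAC and began at position -68 from the start site, on the strand of the gene. SLC7A1 held the same letters, TGATGAAAC, beginning at position 8. In SLC1A4 the match lay on the opposite strand, reads TTTGCATCA on the strand of the gene, and began at position -8. The other matches were in windows whose start was little used or not seen here. The SLC38A1 window with TGATGAAAA at position -4 has its RefSeq start site 2481 bases from the nearest deposited start, and the SLC1A5 window with TGATGCAAG at position -97 lies by an inner start of 1.06 and 0.0073 FPKM in shControl that neither shNeuroD1 library lists. No match was found in the windows of PCK2, SLC7A5, SLC38A2 and SLC6A9, which says only that these letters are not in these windows. The RefSeq start site of the PCK2 window lies 258 bases from the deposited PCK2 start, and SLC6A9 had no start of 1 FPKM.

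NEUROD1 is a basic helix-loop-helix factor of the kind that binds E-boxes, and MYC proteins bind the E-box CACGTG. The E-box CAGATG, searched on both strands, was in 2 of the 14 windows, against 14.7% of all windows. CAGCTG, which reads the same on both strands, was in 3 of 14 against 17.95%, and CACGTG, which also does, was in 2 of 14 against 7.26%. SLC7A5 is printed because it held both palindromic forms in the window of its used start (chr16:87869458-87869757, minus strand). Capitals mark CACGTG, which begins at position -130, and CAGCTG, which begins at position 4.
SLC7A5: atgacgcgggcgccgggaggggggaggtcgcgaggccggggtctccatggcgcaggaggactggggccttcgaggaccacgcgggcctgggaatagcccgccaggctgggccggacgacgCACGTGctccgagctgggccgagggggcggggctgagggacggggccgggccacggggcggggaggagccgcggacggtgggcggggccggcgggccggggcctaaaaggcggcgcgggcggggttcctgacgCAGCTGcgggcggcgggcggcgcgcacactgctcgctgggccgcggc

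**Figure D1:**
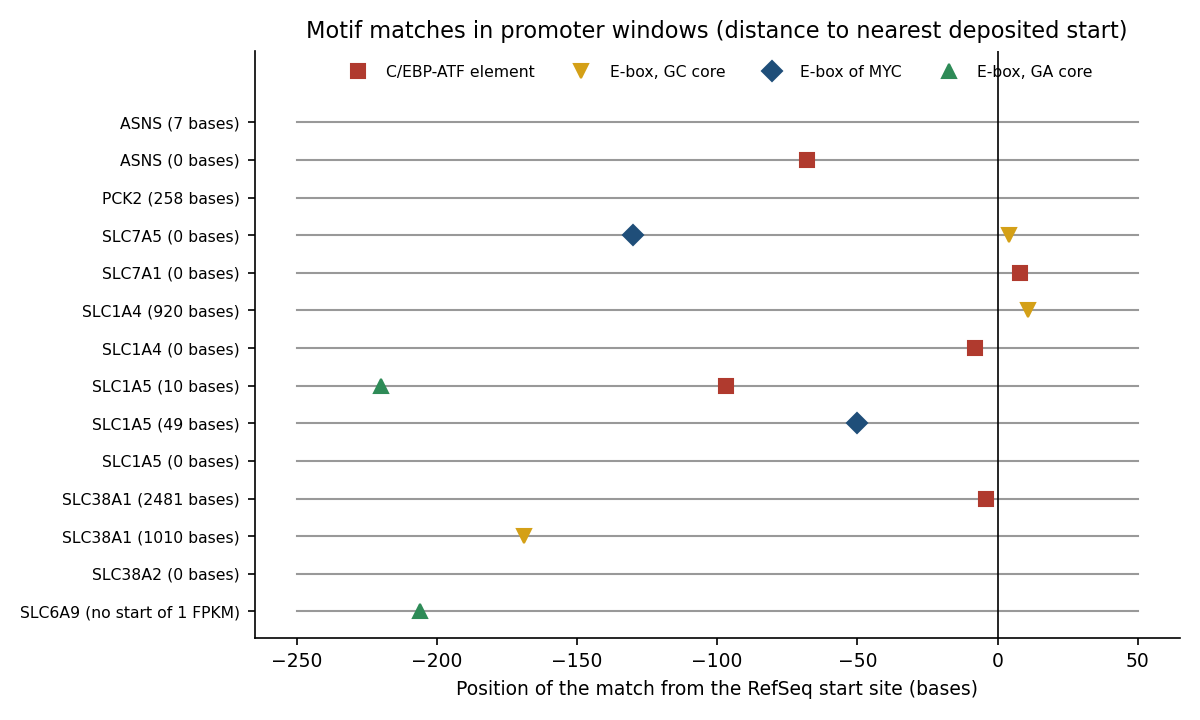
Motif matches in the 14 RefSeq promoter windows of 9 members, by the position of the first matched base from the RefSeq start site (x axis, bases). Each line is a window, the number after the gene is the distance from that start site to the nearest start of at least 1 FPKM in the deposited tables, and squares mark the C/EBP-ATF element in 5 windows. The GA and GC core E-boxes are the forms searched beside the E-box of MYC.

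The targeted gene and the state of the libraries were checked before the members. The shControl libraries held 6174 and 6582 NEUROD1 counts and the shNeuroD1 libraries 969 and 886, 14.6% of the control level in CPM (counts scaled to library size after TMM, a correction for library composition). Libraries held 14665210 to 16482463 counts, and mitochondrial genes took 4.37% to 4.59% of them in shControl and 5.39% to 5.51% in shNeuroD1. All 12 adrenergic neuroblastoma markers had at least 10 counts in every library. The 15 markers of blood, endothelial, fibroblast, epithelial and Schwann cells summed to 41.9 and 43.7 CPM in shControl and 32.5 and 32.3 CPM in shNeuroD1, with 4 to 6 of them at 0 counts in a library, among them CD3E and KRT5 at 0 in all 4. The part of mitochondrial share and marker level in the results was not tested. In RNA from whole cultures, fewer cells of a type and less RNA per cell cannot be told apart.

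All 10 members were measured and passed the filter on low counts, and all 10 were lower in both shNeuroD1 libraries than in both shControl libraries. Summed over the members, the level was 2415 and 2515 CPM in shControl and 1645 and 1674 CPM in shNeuroD1, 67.3% of control. The median log2 fold change of the members was -1.01, and that of all 17537 genes tested was 0.01. In the edgeR quasi-likelihood fit, 5 of 10 members were lower past both thresholds (adjusted p below 0.05, log2 fold change below -1), against 5.14% of all genes, and 0 of 10 were higher, against 8.79%. By adjusted p alone 10 of 10 were lower, against 28.2% of all genes, and 0 were higher, against 26.8%. Both shNeuroD1 libraries lay below both shControl libraries in 37.7% of all genes. Since the members were selected on this contrast, nothing is read from these counts. ASNS (-1.06) and SLC1A4 (-1.07) lay just inside the fold threshold and SLC7A5 (-0.96) just outside it.

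**Figure D2:**
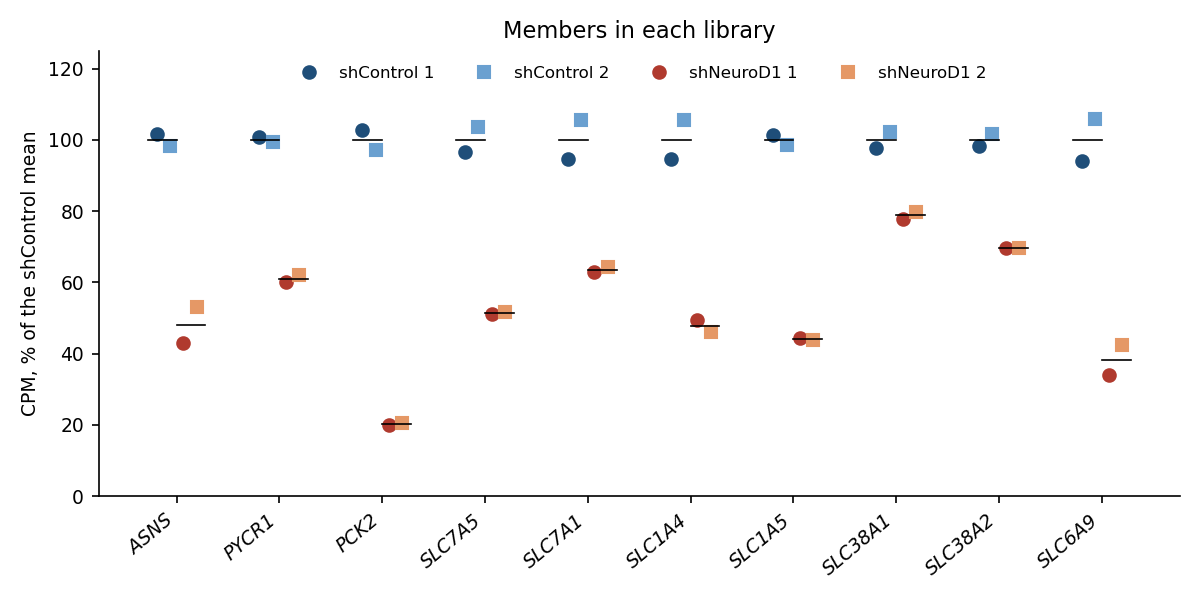
CPM of each member in each library, as a percentage of its shControl mean (y axis). Circles are libraries numbered 1, squares libraries numbered 2, and black lines the mean of 2 libraries. In all 10 genes both shNeuroD1 points lie below both shControl points, from 20.3% of control in PCK2 to 78.9% in SLC38A1.

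PCK2, whose product makes phosphoenolpyruvate from oxaloacetate in mitochondria, had the lowest value of the set relative to control. It was at 46.1 and 43.6 CPM in shControl and at 9.01 and 9.19 CPM in shNeuroD1. That is 20.3% of control, a log2 fold change of -2.30 (SE 0.097, n = 2 libraries per group), at the 0.741 percentile of all genes tested. The libraries of a group were close together and the gap between groups was many times wider. PCK2 (ENSG00000100889, chromosome 14, 24094053 to 24110598, plus strand, GRCh38) shares no exon base with another gene in GENCODE release 29. In the FPKM tables, which give fragments scaled for transcript length and library size for transcript starts and ends, the end of its transcript stood at 8.90 and 6.65 FPKM in shControl and at 1.85 and 1.46 FPKM in shNeuroD1, 21.3% of control.

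ASNS, which makes asparagine from aspartate with glutamine as the amide donor, was at 28.2 and 27.3 CPM in shControl and at 12.0 and 14.7 CPM in shNeuroD1. The level was 48.1% of control and the log2 fold change -1.06 (SE 0.106), with no overlap between groups. The count behind it may be partial. ASNS (ENSG00000070669, chromosome 7, 97852118 to 97872542, minus strand) shares 44.6% of its exon bases with a read-through gene on the same strand (ENSG00000284707), and this gene covers 98.9% of the principal transcript ASNS-202, 84.3% of ASNS-201 and 82.0% of ASNS-203 in GENCODE 29. The read-through gene has counts of its own, so it was part of the annotation used for counting. The release of that annotation and the handling of reads in shared exons are not given in the sources used here. How many reads of the shared exons were counted is therefore uncertain. Counts of the read-through gene itself were 44 and 58 in shControl against 84 and 96 in shNeuroD1. Its log2 fold change was 0.83 (edgeR adjusted p 0.000986, SE 0.206), the opposite direction to ASNS.

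Per length, ASNS was the member for which the deposited tables differed most. It stood at 6.23 CPM per kb of exon in shControl but at 60.5 FPKM when the starts within its bounds were summed, a ratio of 9.72, while the ratio of the other 9 members ran from 0.157 to 1.36. By FPKM it was at 36.3 and 84.7 in shControl and at 20.5 and 18.2 in shNeuroD1, 32.0% of control, with no overlap between groups but a wide spread between the shControl libraries. The authors' tables assign these starts to a merged locus named AC004967.1, so they were gathered here by position, an alternative chosen after seeing the data. Its most used start, the one of the printed promoter, was at 27.9 and 71.9 FPKM in shControl and at 18.4 and 15.2 FPKM in shNeuroD1.

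PYCR1, the mitochondrial enzyme of the last step of proline synthesis, was at 270.0 and 266.3 CPM in shControl and at 161.2 and 166.0 CPM in shNeuroD1. Its level was 61.0% of control and its log2 fold change -0.71 (SE 0.0442), and the groups did not overlap. PYCR1 (ENSG00000183010, chromosome 17, 81932384 to 81942412, minus strand) shares 14.1% of its exon bases with MYADML2 on the same strand. On that strand its principal transcripts share 0% of their bases. With genes of either strand it shares 29.7% of its exon bases, and whether counting used the strand is not stated. By position its starts summed to 132.1 and 120.2 FPKM in shControl and to 59.0 and 92.8 FPKM in shNeuroD1, again with no overlap. The shNeuroD1 libraries differed widely in which start was used. The start at 81937328 with the longer first exon took 53.0% and 49.3% of PYCR1 FPKM in shControl and 15.1% and 65.0% in shNeuroD1, so no difference in start use between groups can be read.

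Among the carriers of essential amino acids, SLC7A5 and SLC7A1 were examined. SLC7A5, the light chain of the LAT1 exchanger for leucine and other large neutral amino acids, was at 200.8 and 215.5 CPM in shControl and at 106.4 and 107.7 CPM in shNeuroD1. It stood at 51.4% of control, a log2 fold change of -0.96 (SE 0.049). SLC7A5 (ENSG00000103257, chromosome 16, 87830023 to 87869488, minus strand) had a single start of at least 1 FPKM, with 31.9 and 33.5 FPKM in shControl and 18.1 and 18.3 FPKM in shNeuroD1, 55.7% of control. SLC7A5 shares 5.71% of its exon bases with a gene on the other strand. SLC7A1 (ENSG00000139514, chromosome 13, 29509410 to 29595688, minus strand), the cationic amino acid carrier CAT1 for arginine and lysine, was at 181.9 and 202.8 CPM in shControl and at 121.1 and 123.6 CPM in shNeuroD1. That is 63.6% of control, a log2 fold change of -0.65 (SE 0.051). Neither gene showed an overlap between groups, and the shControl libraries were further apart than the shNeuroD1 libraries in both.

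SLC1A4 and SLC1A5 encode ASCT1 and ASCT2, sodium-dependent exchangers of neutral amino acids, of which ASCT2 is a main route of glutamine. SLC1A5 was at 126.2 and 122.9 CPM in shControl and at 55.2 and 54.6 CPM in shNeuroD1, 44.1% of control, with a log2 fold change of -1.18 (SE 0.055). SLC1A4 was at 78.6 and 87.7 CPM in shControl and at 41.2 and 38.2 CPM in shNeuroD1, 47.7% of control, with a log2 fold change of -1.07 (SE 0.067). Neither gene overlapped between groups, and the fold changes of the pair differed by 0.11. SLC1A4 (ENSG00000115902, chromosome 2, 64988477 to 65023865, plus strand) shares no exon base with another gene. SLC1A5 (ENSG00000105281, chromosome 19, 46774883 to 46788594, minus strand) shares 23.8% of its exon bases with genes on the other strand, and whether counting used the strand is not stated.

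The starts of this pair differed in how far they moved. The main SLC1A5 start (46788594) was at 38.8 and 39.4 FPKM in shControl and at 19.9 and 19.2 FPKM in shNeuroD1, 50.04% of control. An inner SLC1A5 start (46787342) was at 3.49 and 2.97 FPKM in shControl and at 0.352 and 0.784 FPKM in shNeuroD1, 17.6% of control. This start held 8.06% and 7.01% of SLC1A5 FPKM in shControl against 1.74% and 3.92% in shNeuroD1, with no overlap. The SLC1A4 start of the printed promoter (64989399) took 99.0% and 99.5% of SLC1A4 FPKM in shControl and 84.7% and 76.5% in shNeuroD1, where starts under 1 FPKM made up the rest. These shares rest on assembled transcripts of 2 libraries per group and were not tested.

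SLC38A1 and SLC38A2 encode SNAT1 and SNAT2, sodium-coupled carriers of glutamine and small neutral amino acids. Their genes lie 88.2 kb apart on chromosome 12, SLC38A1 (ENSG00000111371) at 46183063 to 46270017 and SLC38A2 (ENSG00000134294) at 46358189 to 46372867, both on the minus strand. SLC38A2, a gene known to respond to amino acid shortage, was at 466.4 and 482.6 CPM in shControl and at 330.5 and 330.7 CPM in shNeuroD1. It stood at 69.7% of control, a log2 fold change of -0.52 (SE 0.041). SLC38A1 was at 1010 and 1059 CPM in shControl and at 806 and 826 CPM in shNeuroD1, 78.9% of control. Its log2 fold change of -0.34 (SE 0.039) was the smallest in size of the 10 and lay at the 22.2 percentile of all genes.

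The SLC38A genes did not overlap between groups in counts, but the FPKM of SLC38A1 did. Its starts summed to 64.0 and 45.9 FPKM in shControl and to 37.4 and 60.1 FPKM in shNeuroD1, and the change was -0.19 in limma on log2(FPKM + 1). The SLC38A2 start was at 31.7 and 29.7 FPKM in shControl and at 19.5 and 24.7 FPKM in shNeuroD1. The end of SLC38A2 was closer between libraries, at 77.3 and 73.3 FPKM in shControl and at 55.6 and 54.1 FPKM in shNeuroD1, 72.8% of control.

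SLC6A9, the glycine carrier GLYT1, was the lowest member in level. Its counts were 99 and 120 in shControl against 37 and 46 in shNeuroD1, or 6.72 and 7.56 CPM against 2.43 and 3.02 CPM. The level was 38.2% of control and the log2 fold change -1.39, with the largest error of the set (SE 0.206). SLC6A9 (ENSG00000196517, chromosome 1, 43991500 to 44031467, minus strand) shares 7.83% of its exon bases with CCDC24 on the other strand. Its starts summed to 0.254 and 0.181 FPKM in shControl and to 0.291 and 0.130 FPKM in shNeuroD1, where the groups overlapped and the level was 96.9% of control. Under 1 FPKM the change could not be followed in those tables.

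**Figure D3:**
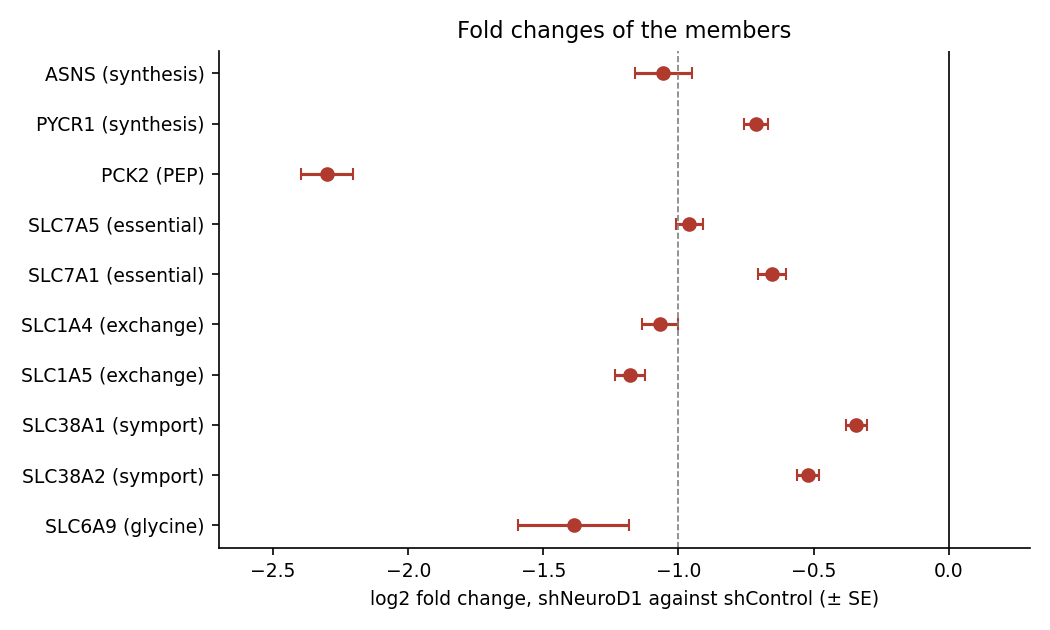
Log2 fold change of each member in shNeuroD1 against shControl (x axis) with its standard error from the edgeR fit of 2 libraries per group (bars). The role of each product stands in brackets and the dashed line marks the fold threshold, a log2 fold change of -1. PCK2 stands apart at -2.30, and SLC38A1 is nearest to 0 at -0.34.

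Compared per length, the members spanned a wide range of levels. In shControl the order of mean CPM per kb of exon was SLC38A1 (103.3), PYCR1 (92.9), SLC38A2 (71.9), SLC7A5 (43.9), SLC1A5 (37.4), SLC7A1 (25.004), SLC1A4 (12.0), PCK2 (10.7), ASNS (6.23) and SLC6A9 (1.38). No neighbours in this order overlapped between the shControl libraries, although the SD of a pair reached 3.45 in SLC38A1. The order depends on the measure of length, here all annotated exons of a gene. By mean FPKM in shControl, PYCR1 (126.2) and ASNS (60.5) stood above SLC38A1 (54.9), and SLC1A5 (42.9) above SLC7A5 (32.7) and SLC38A2 (31.4). The shControl libraries of ASNS and SLC38A1 overlapped in FPKM. SLC1A4 (12.1) stood above SLC7A1 (8.82) by FPKM. In shNeuroD1 the order was the same except that PCK2, at 2.17 CPM per kb, stood below ASNS, at 2.99. The place of ASNS by CPM per kb rests on a count that may be partial.

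**Figure D4:**
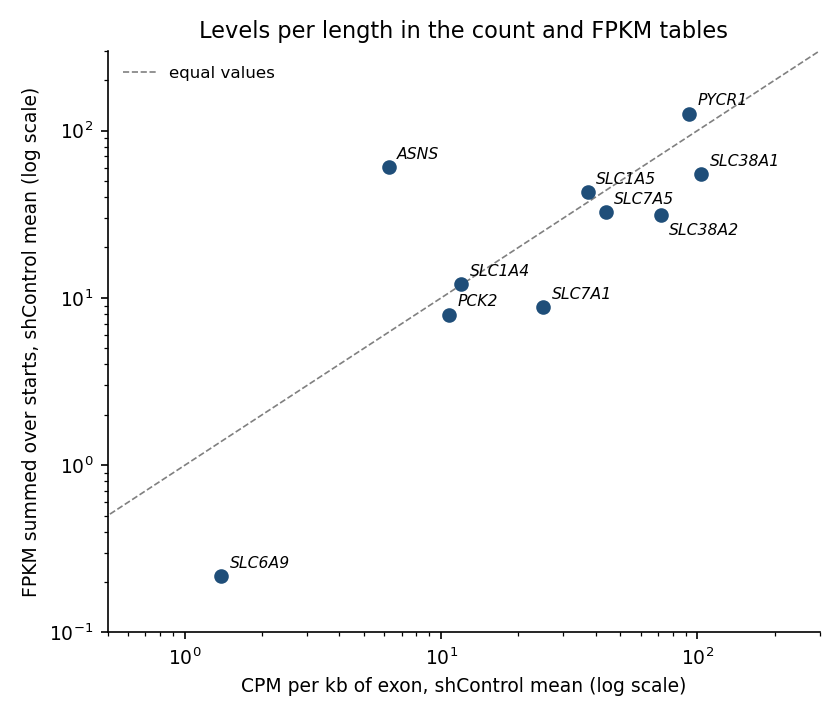
Mean level of each member in the 2 shControl libraries as CPM per kb of exon from the count table (x axis, log scale) and as FPKM summed over transcript starts (y axis, log scale). The dashed line marks equal values. ASNS lies far above it, at 60.5 FPKM against 6.23 CPM per kb, and SLC6A9 lies furthest below it, at 0.218 FPKM against 1.38 CPM per kb.

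Across the 4 libraries, the members were compared in pattern after each was centred on its own mean log2 CPM. SLC7A5 was nearest to the median pattern, at a root mean square distance of 0.0241, and PCK2 was farthest, at 0.679. Among genes that are no members, ZNF354C (0.0143), MPHOSPH9 (0.0173), ZNF714 (0.0197), DNA2 (0.0199) and CDCA2 (0.0204) had the smallest distance to that median pattern over 4 libraries. Their log2 fold changes ran from -0.96 for MPHOSPH9 to -0.91 for CDCA2. With 2 groups of 2 libraries this likeness says little more than that the genes had a fold change of similar size.

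The partners and relatives of the members were then compared. Of 45 other amino acid transporters, 25 passed the filter on low counts. 2 of the 25 fell and 1 rose past both thresholds, against 5.14% and 8.79% of all genes. By adjusted p alone 7 were lower and 10 higher, against 28.2% and 26.8%, and the median log2 fold change was 0.03 against 0.01 for all genes. SLC3A2, the heavy chain that holds SLC7A5 at the membrane, went from 155.6 and 155.0 CPM to 78.2 and 78.7 CPM, 50.5% of control, with a log2 fold change of -0.99 (edgeR adjusted p 2.89e-17). The light and heavy chain of LAT1 thus stood at 51.4% and 50.5% of control. SLC7A11, the cystine carrier that uses the same heavy chain, went from 100.3 and 114.4 CPM to 8.15 and 9.46 CPM, 8.20% of control and -3.61 on the log2 scale (edgeR adjusted p 2.01e-25). The other gene that fell past both thresholds and the gene that rose were below the level set for naming and are named after their values were seen. SLC7A3, a relative of SLC7A1 for cationic amino acids, went from 121 and 172 counts to 10 and 11 (log2 fold change -3.78, edgeR adjusted p 1.17e-13). SLC1A7, a glutamate carrier, went from 17 and 17 counts to 101 and 78 (2.40, edgeR adjusted p 4.57e-09).

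Relatives of the carriers were mixed in direction. Of 7 tested SLC36 and SLC38 genes outside the members, 1 was lower and 3 were higher by adjusted p alone, with a median log2 fold change of 0.17. Of 6 tested SLC3 and SLC7 genes, 3 were lower and 2 higher, with a median of -0.48. Of 4 tested SLC1 genes 0 were lower and 2 higher, and of 3 tested SLC6 genes 1 was lower and 2 higher. In the group of SLC16, SLC43, SLC66 and CTNS genes, 5 were tested, 2 lower and 1 higher, with a median of -0.28. These are counts of few genes beside 28.2% lower and 26.8% higher in all genes.

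Of 25 enzymes of amino acid synthesis outside the members, 24 were tested. 6 fell and 2 rose past both thresholds, against 5.14% and 8.79% of all genes. By adjusted p alone 13 were lower and 5 higher, against 28.2% and 26.8%, and the median log2 fold change was -0.34. All 5 genes that lead to serine and glycine were lower by adjusted p, 4 of them past both thresholds, with a median of -1.63. PHGDH, the first enzyme of serine synthesis, went from 420.2 ± 0.604 to 114.2 ± 1.52 CPM (SD, n = 2 each), a log2 fold change of -1.88 (edgeR adjusted p 1.07e-25). SHMT2, which makes glycine in mitochondria, fell by 1.64, PSAT1, the second enzyme of serine synthesis, by 1.63, and CTH, which releases cysteine from cystathionine, by 2.03 on the log2 scale (edgeR adjusted p at most 8.56e-16). In limma on log2(FPKM + 1) without the filter on low FPKM, PHGDH, SHMT2 and CTH did not pass (adjusted p 0.0507, 0.0549 and 0.0592). The genes that rose past both thresholds were GLS2 (6 and 6 counts in shControl, 43 and 49 in shNeuroD1) and GPT (28 and 41, 113 and 107), both under the level set for naming and chosen after their values were seen.

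The relatives of PYCR1 and PCK2 were read beside them. PYCR3, which catalyses the same step as PYCR1, had a log2 fold change of -0.12 and did not pass (edgeR adjusted p 0.488). It went from 10.05 ± 0.302 to 9.23 ± 1.08 CPM (SD, n = 2 each), a difference within the spread of the shNeuroD1 libraries, and was at 0.05 in limma on log2(FPKM + 1). PCK1, the cytosolic form of the PCK2 enzyme, had 0 counts in all 4 libraries and was not tested. Of 16 genes around phosphoenolpyruvate, pyruvate and gluconeogenesis, 13 were tested, and 0 fell and 2 rose past both thresholds, against 5.14% and 8.79% of all genes. By adjusted p alone 5 were lower and 6 higher, against 28.2% and 26.8%, and the median was 0.13. FBP1, which makes fructose 6-phosphate in gluconeogenesis, went from 48 and 43 counts to 430 and 421, a log2 fold change of 3.23 (edgeR adjusted p 6.15e-19). ME3, a mitochondrial malic enzyme, rose by 1.28 (edgeR adjusted p 3.86e-11), a call that limma on log2(FPKM + 1) did not make (1.22, adjusted p 0.0621).

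The genes that sense amino acids were examined last, and whether they act on the members in these cells was not tested. Of 41 listed genes 40 were tested, and 1 fell and 0 rose past both thresholds, against 5.14% and 8.79% of all genes. By adjusted p alone 9 were lower and 12 higher, near the 28.2% and 26.8% of all genes, and the median log2 fold change was -0.0012. ATF4, whose product binds the C/EBP-ATF element, went from 502.0 ± 16.97 to 237.8 ± 0.301 CPM (SD, n = 2 each), a log2 fold change of -1.08 (edgeR adjusted p 3.24e-20). In limma on log2(FPKM + 1) the ATF4 value was 0.37 and did not pass (adjusted p 0.468), so its direction differs between the deposited tables. EIF2AK4, the gene of GCN2, was at 61.5 ± 2.68 and 65.7 ± 1.58 CPM (SD, n = 2 each), a log2 fold change of 0.09 (edgeR adjusted p 0.191). SESN2, a leucine sensor that is also a known ATF4 target, fell by 0.79 on the log2 scale (edgeR adjusted p 1.2e-06), and limma on log2(FPKM + 1) gave -0.44 (adjusted p 0.169). Its relatives SESN1 and SESN3, named after their values were seen, were higher, at 0.69 and 0.36 (edgeR adjusted p 5.14e-08 and 4.26e-05).

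**Figure D5:**
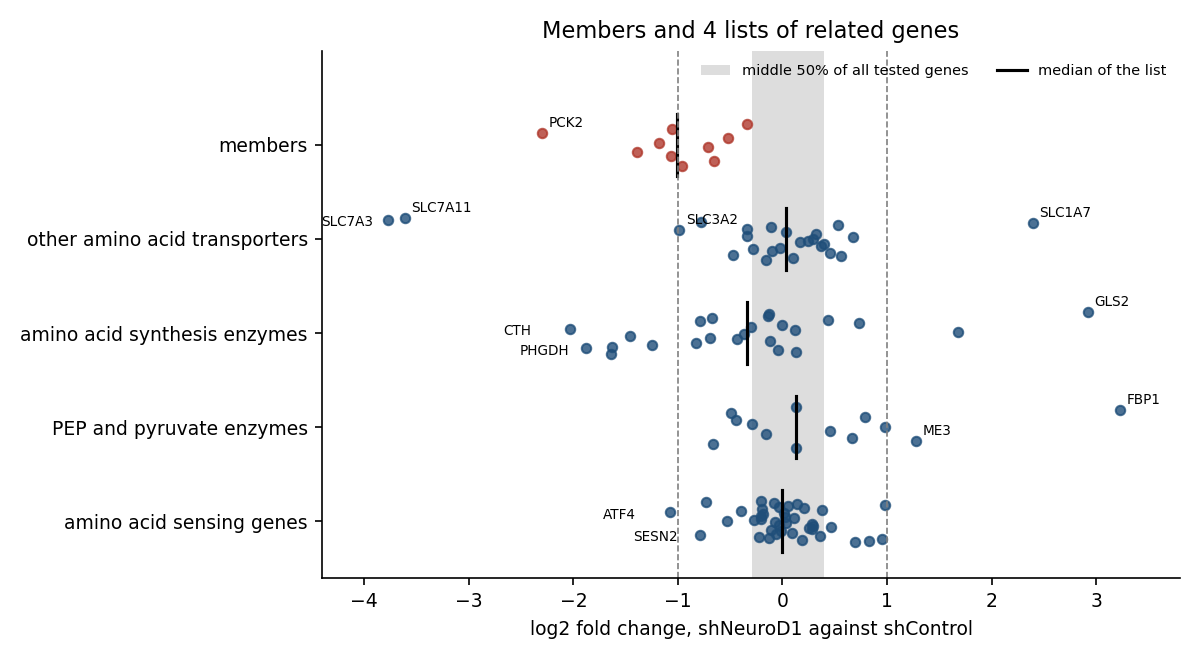
Log2 fold change in shNeuroD1 against shControl (x axis) of the 10 members and of every tested gene in 4 lists. Each point is a gene at an arbitrary height within its row, short black lines are list medians, dashed lines mark a log2 fold change of -1 and 1, and the grey band holds the middle 50% of all tested genes. The list medians lie at 0.03, -0.34, 0.13 and -0.0012, and that of the members, chosen with this contrast known, at -1.01.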

How the data were processed

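RNA of 4 IMR-32 libraries was sequenced. The authors deposited raw read counts of 60612 genes, made, per the submitters' processing notes, with cutadapt 1.9.1, HISAT2 2.0.1 and HTSeq 0.6.1 on hg38. They also deposited FPKM values of starts, ends and splicing events of assembled transcripts for each library, whose tool is not given in the sources used here.

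Counts were fitted in edgeR 4.0.16 (R 4.3.3) after filterByExpr (minimum count 10) and TMM, with the quasi-likelihood test and Benjamini-Hochberg adjustment over 17537 genes. The standard error is the size of the log2 fold change divided by the square root of F. Calls need an adjusted p under 0.05 and, unless stated, a log2 fold change beyond 1 in size. Depth was 14665210 to 16482463 counts per library, and replicates of a group varied by 2.48 and 1.54 times the sampling variance of counts, so none was a copy of another.

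The members, lists and tests were chosen with earlier results of these data known. Named are the members, NEUROD1, genes set in advance (SLC3A2, SLC7A11, PCK1, PYCR3, ATF4, SESN2, EIF2AK4 and a gene that is not reported here), the 4 largest falls and 4 largest rises of each list past both thresholds whose mean reaches 10 CPM, and the 5 nearest patterns. The rule also names each member's starts and ends of at least 1 FPKM, given here by selection. FPKM of a gene was the sum over its starts, tested as log2(FPKM + 1), with 0.1 as an alternative, by limma 3.58.1. Starts of the members were also gathered by position (chosen after seeing the data). Gene bounds and exon lengths are those of GENCODE 29, where 91.07% of 15874 deposited transcript ends overlapped their assigned gene, and promoters are from RefSeq (GRCh38.p14). Other alternatives were DESeq2 1.42.0, DESeq2 size factors, library size alone, other filters, a replicate block, glmTreat, adjusted p alone and leaving out each library.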

Additional observations from a re-analysis of the deposited data

How the results depend on the processing

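The 10 members kept a negative log2 fold change in every fit that tested them. For SLC6A9 this was only -0.0107 in limma on log2(FPKM + 1) without the FPKM filter, against -1.39 in the main fit. The members called lower were 5, and 3 under library size alone (median of all genes 0.12), 2 and 2 in limma on FPKM with a pseudocount of 1 and of 0.1 and 7 members tested, 1 without the FPKM filter with 8 tested, 10 by adjusted p alone and 2 in glmTreat. Leaving out 1 library gave 4 to 6, with SLC1A4 at -0.99 without shControl 2, ASNS at -0.92 without shNeuroD1 1 and SLC7A5 at -1.01 without shControl 1. The median of the members was -0.90 under library size alone, -0.81, -0.84 and -0.65 in the FPKM fits, and -1.02 to -0.94 when 1 library was left out. Fewer members were tested in the FPKM fits because ASNS and PYCR1 carry other gene names there and SLC6A9 is under 1 FPKM; the cause of the other differences was not tested.

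In the FPKM fits (pseudocount 1, pseudocount 0.1, no filter) 201, 206 and 144 genes were lower and 186, 174 and 122 higher, against 902 and 1541. Adjusted p alone gave 4939 and 4698, glmTreat 448 and 576. The higher count was 1117 in DESeq2, with 793 lower. The share of lower calls fell with library size alone, to 733 lower and 1862 higher. Higher calls in the FPKM fits were 0 for other transporters, 0 for synthesis enzymes and 1 for phosphoenolpyruvate and pyruvate enzymes, and 3 synthesis enzymes were lower without the filter. Adjusted p alone gave, lower and higher, 7 and 10 other transporters, 13 and 5 synthesis enzymes, 5 and 6 phosphoenolpyruvate and pyruvate enzymes, and 9 and 12 sensing genes. Sensing genes called lower were 0 under library size alone, in the FPKM fits and in glmTreat, and those called higher were 2 under library size alone and 0 to 1 when 1 library was left out. PYCR3 changed sign in the FPKM fits (0.048, 0.0715 and 0.048), as did ATF4 (0.37, 0.38 and 0.37), with the cause not tested. NEUROD1 did not pass in the FPKM fits (-0.96 with a pseudocount of 1, limma adjusted p 0.291), and the cause was not tested.

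Deviations of libraries with the same number correlated at 0.0158 across genes, which is no sign of pairing. In the fit with a replicate block 5 members, 899 lower and 1511 higher genes were called, and no count of members or lists changed. With 2 libraries per group, depth limits SLC6A9 most, with 37 and 46 counts in shNeuroD1.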

Other observations

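Among the sensing genes, some subunits of the complexes that bring amino acid signals to the kinase mTORC1 were higher while others of the same complexes were not. They are named after their values were seen. RRAGB, a Rag GTPase, went from 17.1 ± 0.626 to 33.1 ± 1.56 CPM (SD, n = 2 each), a log2 fold change of 0.96 (edgeR adjusted p 1.36e-10). Its close relative RRAGA was at -0.03 (edgeR adjusted p 0.681), and RRAGD was lower, at -0.53 (edgeR adjusted p 5.85e-07). MIOS, a subunit of GATOR2, rose by 0.98 (edgeR adjusted p 9.16e-17), while WDR24 of the same complex was at -0.13 (edgeR adjusted p 0.417). LAMTOR4 of the Ragulator rose by 0.83 (edgeR adjusted p 1.91e-08), and LAMTOR1 was at -0.07 (edgeR adjusted p 0.486). Differences between these relatives were not tested.

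In alanine metabolism, also chosen after the values were seen, GPT2, the mitochondrial alanine aminotransferase, fell by 1.46 on the log2 scale, from 128.4 ± 1.05 to 46.7 ± 3.22 CPM (SD, n = 2 each, edgeR adjusted p 4.48e-20), whereas the cytosolic GPT rose by 1.68 from a low level of 28 and 41 counts (edgeR adjusted p 5.6e-08).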
